A study of Mus musculus with 6 samples.

Results

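Mitochondrial ribosomal protein genes were examined in inguinal white adipose tissue (IngWAT) of mice lacking histone deacetylase 3 in adipocytes. The members were the protein-coding genes whose mouse symbol starts with Mrpl (large subunit) or Mrps (small subunit) and that held 10 or more counts summed over the samples. There were 77 of them, 48 Mrpl and 29 Mrps genes, among 46517 genes in the files and 19062 that reached the same minimum. Of 78 protein-coding genes with these names only Mrpl53 was left out, as it had 0 counts in every sample. Its counts say little of its RNA, because 87.97% of its exon bases also lie in exons of Gm42688 on the same strand.

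The study asked how loss of HDAC3 in adipocytes changes white fat, and sequenced polyadenylated RNA of IngWAT from floxed and H3atKO mice. The strain of every sample was labelled C57Bl6, and the study's methods give the background as C57Bl/6J. Floxed mice, the controls, carried the Hdac3 floxed alleles. H3atKO mice carried the same floxed alleles together with a Cre recombinase driven by the adiponectin (Adipoq) promoter, so the deletion was limited to adipocytes and the other cells of the depot kept the gene. Animals were on chow diet and aged 5 to 9 months. Each group had 3 samples, and each sample was RNA pooled from 2 or 3 mice of the same group, so the spread between samples understates that between animals. In such bulk RNA, fewer cells of a type and less RNA per cell cannot be told apart.

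Samples held 23865507 to 35200685 counts. Hdac3 read 65.8 to 80.3 normalized cpm in floxed and 12.9 to 27.4 in H3atKO samples, a log2 fold change of -1.83 (limma voom, adjusted p = 0.0213). Transcripts of the mitochondrial genome took 9.13% ± 3.26 of the counts in floxed and 32.0% ± 4.49 in H3atKO samples (SD, n = 3). Summed adipocyte markers overlapped between the groups (13500 to 29180 and 15400 to 26600 cpm, 0 of 7 called). The 6 brown adipocyte markers summed to 21.5 to 70.8 and 305.8 to 1132 cpm (3 called), and the 5 endothelial markers to 551 to 925 and 374 to 506 cpm (2 called). The 6 macrophage markers summed to 381 to 2144 and 333 to 586 cpm (2 called). Their sums overlapped, and floxed replicate 3 alone gave the 2144. Calls here are in either direction, and over all genes 9.42% were called higher and 7.07% lower (limma voom). The 6 muscle markers summed to 558 to 2491 and 2.53 to 3344 cpm (0 called), the 8 lymphocyte markers to 28.1 to 156 and 76.9 to 1175 cpm (0 called), the 6 stromal markers to 1857 to 8088 and 1319 to 2135 cpm (1 called), and 2 of 5 epithelial markers passed the filter (0 called). No listed marker was at 0 in every sample. The part of these cell types in the results below was not tested.

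Mitochondria translate the few messenger RNAs of their own genome on a dedicated ribosome, the mitoribosome, whose ribosomal RNAs are made inside the organelle while all of its proteins are encoded in the nucleus, made in the cytosol and imported. The small subunit decodes the messenger RNA and the large subunit joins the amino acids. Some of the proteins have counterparts in bacterial ribosomes and others occur only in mitochondria. The products are subunits of ATP synthase and of the respiratory chain, the latter abundant in brown and beige adipocytes.

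The starts of the coding sequences of the highest and the lowest member of each subunit are shown because the members' differences followed the base composition of their transcripts. Each run is the first 120 coding bases of the gene's longest complete coding sequence in GENCODE M21 (GRCm38), with G and C in capitals. Mrpl1 started at chr5:96210163 and Mrpl4 at chr9:21002941, Mrps2 at chr2:28468100 and Mrps34 at chr17:24895168, all on the plus strand.
Mrpl1: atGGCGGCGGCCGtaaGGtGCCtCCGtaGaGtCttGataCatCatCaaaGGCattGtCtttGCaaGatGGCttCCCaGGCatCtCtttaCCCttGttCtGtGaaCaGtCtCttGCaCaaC
Mrpl4: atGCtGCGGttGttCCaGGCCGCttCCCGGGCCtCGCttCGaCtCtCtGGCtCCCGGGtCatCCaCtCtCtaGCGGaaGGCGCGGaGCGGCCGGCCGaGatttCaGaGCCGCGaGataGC
Mrps2: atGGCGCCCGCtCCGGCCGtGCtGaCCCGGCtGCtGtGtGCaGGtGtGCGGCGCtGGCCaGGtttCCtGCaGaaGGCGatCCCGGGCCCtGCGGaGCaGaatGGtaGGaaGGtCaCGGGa
Mrps34: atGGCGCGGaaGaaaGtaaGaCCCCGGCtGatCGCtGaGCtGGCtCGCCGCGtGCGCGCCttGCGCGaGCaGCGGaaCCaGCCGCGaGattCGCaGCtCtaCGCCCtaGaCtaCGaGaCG
Of these 120 bases, 60 were G or C in Mrpl1, 80 in Mrpl4, 83 in Mrps2 and 79 in Mrps34. Over the whole longest transcript, GC content was 41.6% for Mrpl1, 56.1% for Mrpl4, 49.96% for Mrps2 and 59.9% for Mrps34, and it ranged from 38.6% to 60.4% over the 77 members (median 49.7%).

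In the large subunit, 7 of 48 members were upregulated in H3atKO mice and 0 were downregulated (limma voom, adjusted p under 0.05 over all genes tested). In the small subunit, 4 of 29 were upregulated and 0 downregulated. Over all 14967 genes tested, 9.42% were called higher and 7.07% lower by the same rule, so the share called higher was somewhat above that of all genes and the share called lower below it. The counts at an unadjusted p under 0.05 were 15 higher and 10 lower in the large and 8 higher and 5 lower in the small subunit, against 20.4% and 23.4% of all genes. The quasi-likelihood test of edgeR called 8 large and 6 small subunit members higher and 3 and 2 lower, against 12.8% and 18.4% of all genes, so its share of members called lower was below that of all genes. Log2 fold changes had a median of 0.08 in the large subunit (quartiles -0.76 and 0.68) and 0.00305 in the small subunit (quartiles -0.98 and 0.65), against -0.09 over all genes. Both subunits thus held genes at both ends rather than a common shift, with 25 positive and 23 negative fold changes in the large and 15 and 14 in the small subunit. Over all genes 7112 were positive and 7855 negative, with quartiles of -1.22 and 0.78. Values at both ends were therefore not particular to the members. Scaled by library size only, without TMM factors, the medians were -0.77 and -0.85 and that of all genes -0.945, so every direction given here is relative to the bulk of genes.

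**Figure D1:**
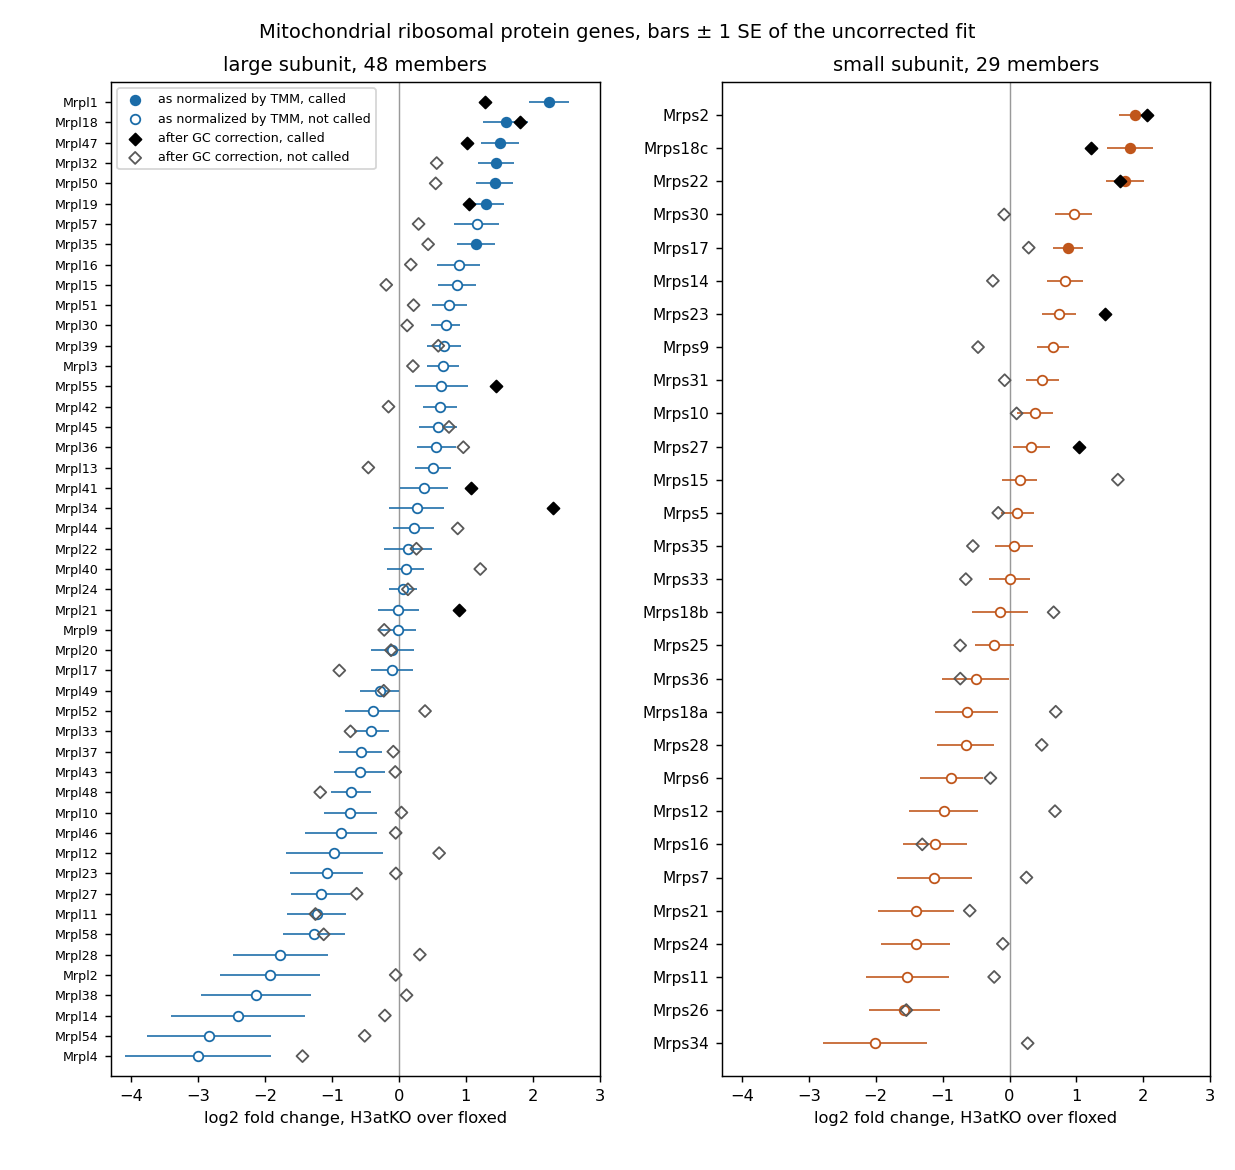
Log2 fold change (H3atKO over floxed, x axis) of each of the 77 members in order of the uncorrected value, circles with bars of ± 1 SE from limma voom, and diamonds after correction for transcript GC content. Filled symbols have an adjusted p under 0.05, and the long tail of low values in both subunits moves toward 0 after the correction.

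Mrpl1 was the most upregulated member. It encodes the protein of the mobile stalk beside the exit site for transfer RNA. It read 16.03, 21.98 and 30.33 normalized cpm in floxed and 85.62, 114.2 and 114.8 in H3atKO samples. The groups did not overlap, and the log2 fold change was 2.24 (SE 0.30, limma voom adjusted p = 0.0119). Mrpl18, counterpart of a bacterial protein that binds 5S ribosomal RNA, read 21.5, 16.3 and 24.9 cpm in floxed and 45.7, 57.2 and 95.5 in H3atKO samples. Mrpl18 rose by a log2 fold change of 1.596 with all H3atKO samples above all floxed ones (SE 0.34, limma voom adjusted p = 0.0304). The other members called in the large subunit were Mrpl47 (1.51), Mrpl32 (1.46), whose protein is matured by a protease of the inner mitochondrial membrane, Mrpl50 (1.43), Mrpl19 (1.296) and Mrpl35 (1.15). None of these 5 had overlapping groups. Of the 77 members 27 lay wholly higher in H3atKO samples and 19 wholly lower, against 23.1% and 28.6% of all genes tested, and 17 of the 27 and 13 of the 19 were in the large subunit.

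In the small subunit, Mrps2 had the largest value. It read 26.7, 20.1 and 29.8 normalized cpm in floxed and 96.1, 97.8 and 84.8 in H3atKO samples. All 3 H3atKO samples were above 80 cpm and all floxed samples below 30, and the log2 fold change was 1.88 (SE 0.24, limma voom adjusted p = 0.0114). Mrps18c encodes 1 of 3 variants of the protein bS18. It read 12.01, 16.64 and 22.80 cpm in floxed and 43.4, 58.5 and 78.0 in H3atKO samples (log2 fold change 1.81, limma voom adjusted p = 0.0249). Its exons share 23.2% of their bases with Gm43511 on the same strand. The other variants were not called, with log2 fold changes of -0.14 (Mrps18b) and -0.64 (Mrps18a). Mrps22, a protein particular to mitochondria, read 8.65, 9.59 and 14.02 cpm in floxed and 31.34, 38.799 and 34.52 in H3atKO samples. Mrps22 thus had no overlap between groups, with a log2 fold change of 1.72 (limma voom adjusted p = 0.0207). Mrps17 rose less, by 0.88, and Mrps30 had 0.96 with an adjusted p of 0.0509 in limma voom. The protein of Mrps30 sits in the large subunit in spite of its symbol.

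**Figure D2:**
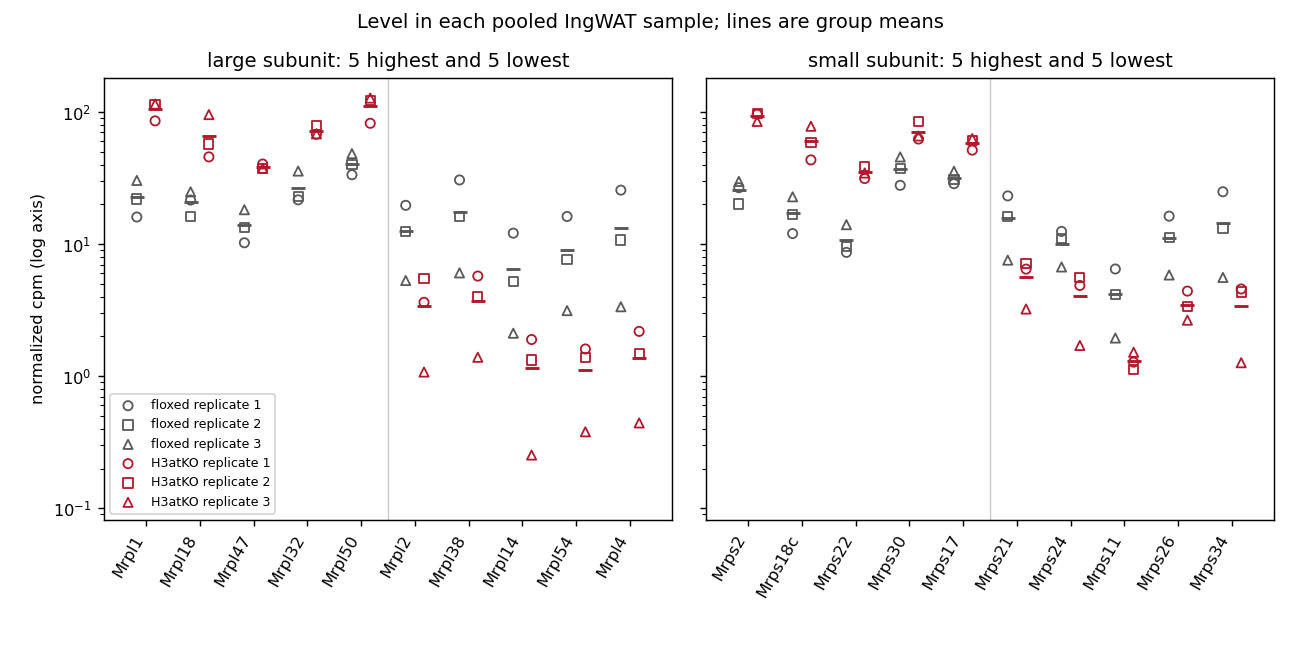
Normalized cpm (log axis) in each of the 6 samples for the 5 highest and the 5 lowest members of each subunit by log2 fold change, grey for floxed and red for H3atKO, with a symbol for each replicate number and a line at the group mean. The highest members are separated by group, and the 5 lowest of the large subunit spread 3.71-fold or more within both groups, while in the small subunit Mrps11 and Mrps26 spread less in H3atKO samples (1.35-fold and 1.66-fold).

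At the low end, Mrpl4 encodes a protein that lines the exit tunnel for the growing peptide. It read 25.6, 10.7 and 3.35 normalized cpm in floxed and 2.18, 1.48 and 0.443 in H3atKO samples. The groups did not overlap, yet the floxed samples alone differed 7.63-fold, and the log2 fold change of -2.997 (SE 1.09) did not pass (limma voom adjusted p = 0.0807). Mrpl54 read 16.2, 7.67 and 3.14 cpm in floxed and 1.61, 1.38 and 0.379 in H3atKO samples, a log2 fold change of -2.84 (limma voom adjusted p = 0.0649). The next were Mrpl14 at -2.41, which lies between the subunits, Mrpl38 at -2.13 and Mrpl2 at -1.92. Mrpl2 had overlapping groups, as H3atKO replicate 2 (5.46 cpm) lay above floxed replicate 3 (5.30 cpm). In the small subunit, Mrps34 read 24.90, 13.03 and 5.59 cpm in floxed and 4.57, 4.33 and 1.26 in H3atKO samples, a log2 fold change of -2.01 (limma voom adjusted p = 0.0901). Its exons overlap those of Nme3 on the same strand (37.0% of bases) and of Mapk8ip3 on the other (63.4%), so its counts are uncertain. Mrps26 (-1.57), Mrps11 (-1.53), Mrps24 (-1.40) and Mrps21 (-1.40) followed, none with an adjusted p under 0.05.

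Floxed and H3atKO samples with the same replicate number deviated together from their group means over all genes. Of the members, 31 were higher in H3atKO in all 3 pairs, 30 were lower in all 3, and 16 were mixed. Pair directions were not counted over all genes, so these counts cannot be read as particular to the members. With the replicate number as a block in limma voom, 15 large and 8 small subunit members were called higher and 12 large and 9 small subunit members lower, against 24.8% and 28.7% of all genes. In that fit Mrpl4 had an adjusted p of 0.0029, Mrpl54 of 0.00329, Mrpl14 of 0.00452, Mrpl38 of 0.00304, Mrpl2 of 0.00773, Mrps34 of 0.00414 and Mrps26 of 0.00576 by limma voom. The 5 lowest members of each subunit were all called in the blocked fit, and none of them in limma voom without the block. The shares of members called in either direction in the blocked fit were near those of all genes. The labels do not give the pairing, which was taken from these same data. With the GC correction described below added to the block, only Mrpl4 and Mrps26 of these lowest members stayed called (limma adjusted p = 0.0229 and 0.0167).

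The calls also rested on single samples. Without floxed replicate 2, 0 members of either subunit were called higher in limma voom, and in that fit 1 gene of all was called higher and 0 lower. Without floxed replicate 1, H3atKO replicate 1 or H3atKO replicate 2, 1 member of each subunit was called higher. Over all genes 149, 199 and 395 were called higher in these fits, in that order. Without H3atKO replicate 3, 0 large and 1 small subunit member were called higher, and 87 genes of all. The fall in calls was thus shared by all genes. Without floxed replicate 3, 12 large and 5 small subunit members were called higher and 9 and 8 lower, against 18.5% and 25.9% of all genes in that fit. Mrps2 was called in 5 of these 6 fits and Mrpl1 in 4, with log2 fold changes of 1.72 to 2.00 and 2.00 to 2.48.

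The members' differences ran with the GC content of their transcripts. Across the 77 members, Spearman's rho of the log2 fold change with transcript GC content was -0.679 (-0.703 in the large and -0.612 in the small subunit), close to the -0.706 over all genes. These are correlations across genes, which share the same 6 samples. The 26 members of lowest GC content had a median log2 fold change of 0.73 with 7 called higher, the 25 in the middle 0.06 with 4 called, and the 26 of highest GC content -0.97 with 0 called. None of these 3 sets had a member called lower. Over all genes of any GC content, 9.42% were called higher and 7.07% lower in limma voom. Shares over all genes of like GC content were not counted, so the counts in these sets cannot be read as particular to the members. Members with GC-rich transcripts also varied most among samples of 1 genotype: the ratio of the highest to the lowest sample had a median of 1.31 in floxed and 1.39 in H3atKO samples for the 26 of lowest GC content, and of 1.98 and 2.57 for the 26 of highest.

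**Figure D3:**
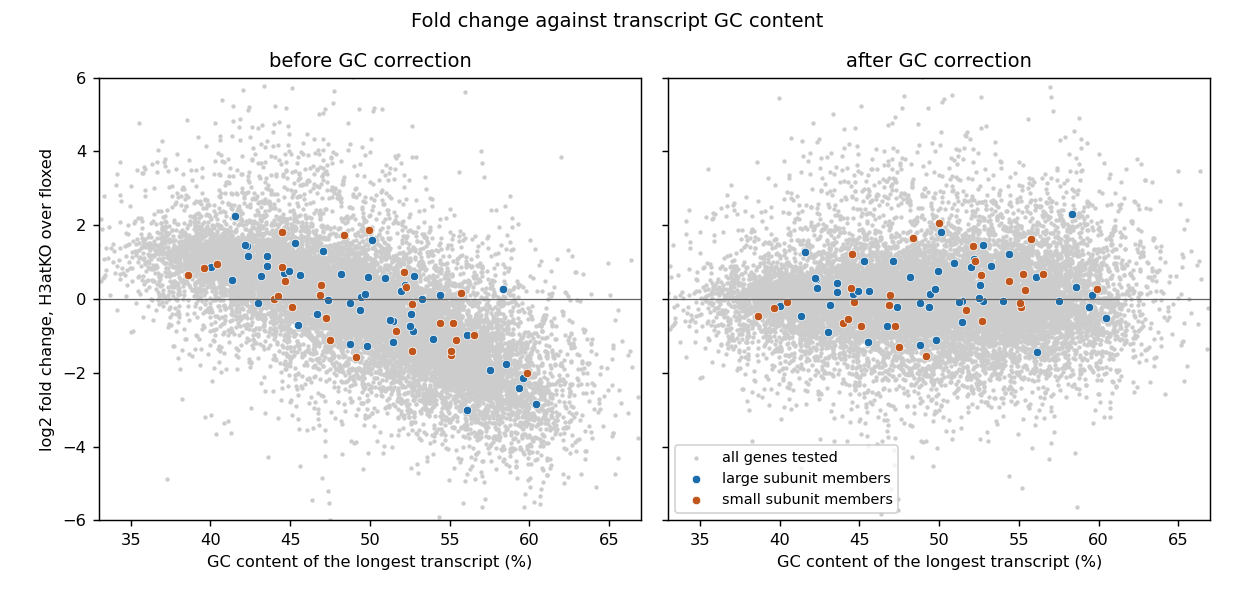
Log2 fold change (H3atKO over floxed, y axis) against GC content of the longest transcript (x axis, percent), before and after the correction, with all genes tested in grey and members in colour (some genes lie outside the axes). Members follow the falling band of all genes before the correction. After it they lie on both sides of 0, with a Spearman's rho with GC content of 0.21.

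The same relation was present between samples of a single genotype. The log2 ratio of floxed replicate 3 to floxed replicate 1 had a rho of -0.736 with GC content over the members, with a median of 0.20 for the 26 members of lowest and -0.99 for the 26 of highest GC content. For H3atKO replicate 3 over H3atKO replicate 1 the rho was -0.611, with medians of -0.11 and -1.23. Over 14922 genes, the deviation of a sample from the gene mean had a rho with GC content of 0.80, 0.62 and 0.10 in floxed and of -0.43, -0.50 and -0.71 in H3atKO samples. The 6 samples were thus ordered by genotype on this scale, so a relation of library composition to GC content and the genotype cannot be told apart.

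**Figure D4:**
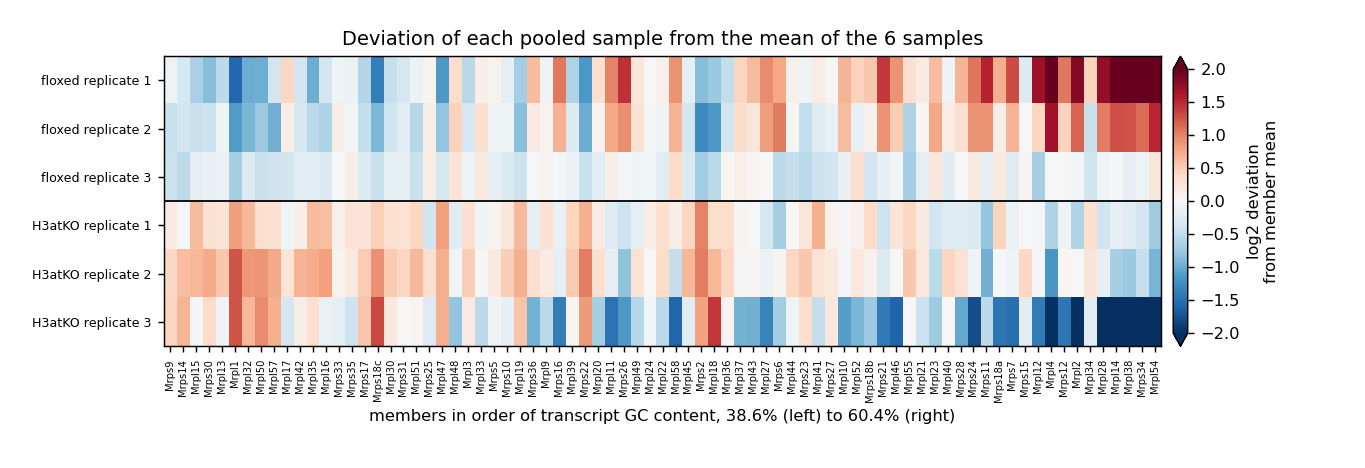
Log2 deviation of each sample (rows, floxed above and H3atKO below the line) from the mean of the 6 samples for the 77 members (columns) in order of transcript GC content from 38.6% to 60.4%, with the colour scale ending at 2 in both directions. GC-rich members at the right are high in floxed replicates 1 and 2 and low in H3atKO replicate 3, with the other 3 samples between them.

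To describe the members beside genes of like composition, a smooth curve of each sample's deviation on GC content was subtracted and limma refitted. Of the large subunit members 8 were then called higher and 0 lower, and of the small 5 and 0, against 5.41% and 3.15% of all genes. At an unadjusted p under 0.05 in this limma fit 15 large and 7 small subunit members were higher and 4 and 3 lower, against 16.5% and 14.4% of all genes. The medians were 0.16 and -0.07. Spearman's rho of the corrected values with GC content was 0.21 over the members (0.08 large, 0.39 small subunit) and -0.0015 over all genes. The relation with GC content was thus turned in sign in the members. The 26 members of lowest GC content had a median of -0.08 with 3 called higher, the 25 in the middle 0.11 with 6. The 26 of highest GC content had 0.29 with 4 called higher. Shares over all genes of like GC content were not counted. Of the 5 lowest members of each subunit, several came closer to 0: Mrpl54 went from -2.84 to -0.51, Mrpl14 from -2.41 to -0.21, Mrpl2 from -1.92 to -0.05, and Mrpl38 and Mrps34 turned to 0.11 and 0.27. Mrps26 kept its value (-1.57 and -1.54), and among the other members Mrpl11, Mrps16 and Mrpl48 were as low or lower after the correction. In all, 22 of the 77 members had the opposite sign after it. With the GC content of the coding sequence in place of that of the transcript, 9 large and 6 small subunit members were called higher and 0 lower, against 7.23% and 3.46% of all genes, and the medians were 0.38 and 0.38, so the position of the family relative to all genes depended on which sequence was used.

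Called higher both before and after the GC correction were 7 members: Mrpl1, Mrpl18, Mrpl19, Mrpl47, Mrps2, Mrps18c and Mrps22. Exons of Mrpl19 share 36% of their bases with Gcfc2, and those of Mrpl47 24.2% with Actl6a and Ndufb5, all on the other strand. Of the members, 9 share over 20% of exon bases with other genes on either strand. Without them 5 of 44 large and 3 of 24 small subunit members were called higher before the correction, against 9.42% of all genes. After it the counts were 6 and 3, against 5.41%, and 2 and 2 were called in both fits. After the correction Mrps2 had a log2 fold change of 2.06 (SE 0.21, limma adjusted p = 0.00975), Mrpl18 of 1.81, Mrps22 of 1.66 and Mrpl1 of 1.28. All 7 members named were also called with the replicate block, without and with the correction. Those fits called 24.8% and 12.9% of all genes higher, and the pairing was taken from these same data. In the corrected fits without 1 sample each, Mrps2 was called in 5 of 6 and Mrpl1 in 4, Mrps22 in 3, Mrpl18 and Mrps18c in 2, and Mrpl19 and Mrpl47 in 1. After the correction and without floxed replicate 2, 0 members were called, and 0 genes of all. Without floxed replicate 1 the counts called higher were 0 large and 1 small subunit member (57 genes of all), without H3atKO replicate 1 they were 2 and 4 (326), without H3atKO replicate 2 they were 1 and 3 (449) and without H3atKO replicate 3 they were 1 and 1 (211). Without floxed replicate 3, 10 large and 6 small subunit members were called higher and 3 and 2 lower, against 8.05% and 8.43% of all genes in that fit. Mrpl32, Mrpl50, Mrpl35 and Mrps17 were called before the correction only, and had 0.56, 0.55, 0.44 and 0.29 after it.

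The other 6 members called by limma after the correction were not called by limma voom before it. Mrpl34 read 7.09, 3.82 and 3.96 normalized cpm in floxed and 6.59, 6.22 and 4.49 in H3atKO samples. Its groups overlapped, with a log2 fold change of 0.27 before and 2.31 after the correction (limma adjusted p = 0.63 and 0.024). Mrpl55 (0.63 before and 1.45 after), Mrpl41 (0.38 and 1.08) and Mrpl21 (-0.01 and 0.90) had overlapping groups too. Mrps23 read 29.8, 22.1 and 21.4 cpm in floxed and 36.8, 45.1 and 39.4 in H3atKO samples. Its groups did not overlap, with 0.73 before and 1.43 after, and it was also called without the correction in DESeq2 (adjusted p = 0.0253) and in limma voom with the block (adjusted p = 0.0317). Mrps27 was separated by group as well (0.32 and 1.04). Mrps15 had 1.62 with an adjusted p of 0.0631 by limma.

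The block and the GC correction together called 11 large and 6 small subunit members higher and 6 large and 2 small subunit members lower, against 12.9% and 9.84% of all genes. The 8 called lower were Mrpl4, Mrpl11, Mrpl17, Mrpl33, Mrpl48, Mrpl58, Mrps16 and Mrps26. Mrpl48, with a GC content of 45.5%, read 20.2, 21.8 and 19.1 cpm in floxed and 13.3, 15.1 and 9.10 in H3atKO samples. Its groups did not overlap, and the log2 fold change was -0.71 before and -1.18 after the correction (limma adjusted p = 0.106 and 0.0567 without the block). Mrpl58, a peptidyl-tRNA hydrolase built into the ribosome, read 13.3, 11.5 and 9.14 cpm in floxed and 7.70, 5.10 and 2.34 in H3atKO samples. It too was separated by group, with -1.27 before and -1.12 after. Mrps26 had -1.57 before and -1.54 after, and Mrpl4 -2.997 and -1.44.

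Levels were compared between genes per kb of annotated exon. Medians were 8.27 cpm per kb in floxed and 8.53 in H3atKO samples for the large subunit and 5.55 and 5.43 for the small subunit. In floxed samples the most abundant large subunit members were Mrpl24 (25.8 cpm per kb), Mrpl41 (20.8) and Mrpl27 (19.9), and in H3atKO samples Mrpl50 (52.2), Mrpl18 (47.3) and Mrpl41 (27.4). In the small subunit they were Mrps6 (41.7), Mrps15 (22.6) and Mrps21 (21.1) in floxed and Mrps18c (55.7), Mrps2 (31.8) and Mrps23 (25.9) in H3atKO samples. Mrpl24 was nearly level, at 56.9 to 59.6 normalized cpm in floxed and 57.2 to 65.8 in H3atKO samples. Mrps6 had overlapping groups, with 73.6, 88.4 and 30.0 cpm in floxed and 27.1, 44.5 and 26.4 in H3atKO samples. Mrps36, whose protein belongs to the 2-oxoglutarate dehydrogenase complex, read 1.75 to 2.72 and 0.885 to 2.19 cpm.

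Members with a bacterial counterpart and those particular to mitochondria were described apart. Here Mrps18a and Mrps30 were placed in the large subunit by their proteins, and Mrps36 was left out. In the large subunit 6 of 30 with a counterpart and 1 of 20 without were called higher (Mrpl50), with medians of 0.10 and -0.10. In the small subunit the counts were 3 of 16 and 1 of 10 (Mrps22), with medians of -0.27 and 0.04, and 0 were called lower in any of the 4 groups (limma voom). Over all genes 9.42% were called higher and 7.07% lower in that fit. The difference between these groups was not tested, so the counts cannot be read as a trait of either kind of protein. By the place of the protein in the ribosome in place of the symbol's letter, the counts were 7 of 50 and 4 of 26.

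The remaining genes of mitochondrial translation are given as counts called higher by limma before and after the GC correction, with 0 called lower in either and against the 9.42% and 5.41% of all genes called higher in these fits. Of 5 ribosomal proteins with other symbols, 1 was called before and 2 after. Ptcd3, an RNA-binding protein of the small subunit, read 25.7, 26.9 and 40.0 cpm in floxed and 125, 153 and 189 in H3atKO samples. All H3atKO samples were above all floxed ones, with a log2 fold change of 2.35 before and 1.43 after the correction (limma adjusted p = 0.00946 and 0.0113). Dap3, a GTP-binding protein of the small subunit, was called only after it (0.47 and 0.80). Chchd1 had 0.90 and 0.82, Aurkaip1 -1.43 and 0.17, and Gadd45gip1 -2.42 and -1.20.

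Of 29 factors that assemble the mitoribosome or modify its RNA, 3 were called before and 1 after. Fastkd5 (1.602), Fastkd2 (1.54) and Trmt2b (1.09) were the former and the helicase Ddx28 (1.55 after the correction) the latter, while Mpv17l2 was lowest at -3.24 and -0.86 after. The translation factors had 5 of 15 called in each fit, with medians of 0.70 and 0.29. Mtif2, an initiation factor, read 20.7, 26.6 and 38.3 cpm in floxed and 64.0, 82.2 and 103 in H3atKO samples, without overlap (log2 fold change 1.56, and 0.95 after). Gfm1, an elongation factor, had 1.41 and 1.05, and Lrpprc, which stabilizes mitochondrial messenger RNAs, 1.40 and 1.14. All 3 were called in both fits, whereas Tufm, the mitochondrial elongation factor Tu, had -1.94 and -0.44 and was called in neither. Of 22 aminoacyl-tRNA synthetases and related enzymes 3 and 2 were called, Rars2 (1.56 and 0.92) and Yars2 (1.27 and 0.90) in both and Mars2 (1.32 and 0.20) before only, with Sars2 lowest at -2.69 and -0.41.

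**Figure D5:**
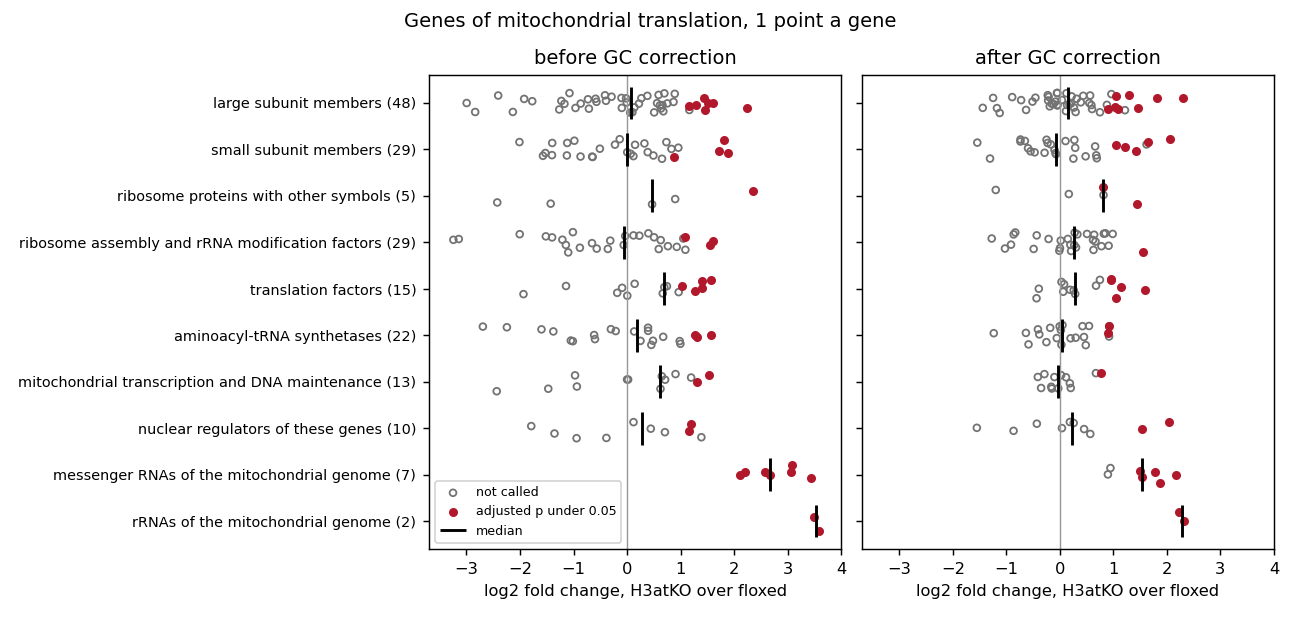
Log2 fold change (H3atKO over floxed, x axis) of the members and of each fixed list of mitochondrial translation genes, 1 point a gene, before and after the GC correction, with genes of adjusted p under 0.05 in red and the list median as a bar. Transcripts of the mitochondrial genome lie above every list encoded in the nucleus in median.

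Among 13 genes of mitochondrial transcription and DNA maintenance, 2 were called before and 1 after. Tfam, which packages and transcribes mitochondrial DNA, had 1.31 and 0.77 and was called in both fits. Tfb2m (1.53 and 0.67) was called before only, and Polrmt, the mitochondrial RNA polymerase, was lowest at -2.44 and -0.10. Of 10 nuclear regulators of these genes, 2 were called in each fit. Yy1 read 44.6, 52.0 and 58.2 cpm in floxed and 96.6, 105 and 159 in H3atKO samples, and was called in both (1.19 and 1.54). Gabpa, the DNA-binding subunit of GABP, was called before (1.16) and not after (0.19), Ppargc1b after (2.04) and not before (0.12), and Esrra was lowest at -1.79 and -1.55. Ppargc1a had 1.39 and 0.45 with adjusted p = 0.0546 and 0.389 (limma). Both ribosomal RNAs of the organelle were called in both fits, with mt-Rnr1 at 503 to 592 cpm in floxed and 5042 to 8395 in H3atKO samples and a log2 fold change of 3.58 (2.32 after) and mt-Rnr2 at 3.49 (2.22 after). Of the 13 messenger RNAs of the mitochondrial genome 7 passed the filter, and all 7 were called higher before and 5 after the correction, from mt-Nd5 at 2.10 to mt-Nd2 at 3.43 before. Reads aligned to more than 1 place were counted to no gene. They made up 31.0% ± 3.68 of counts and tallies together in floxed and 44.7% ± 0.849 in H3atKO samples (SD, n = 3). Their part in the values of mitochondrial transcripts was not tested.

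Promoters of the members were described because the regulators Yy1 and Gabpa, with known DNA motifs, were called before the GC correction. Only Yy1 of these was also called after it. NRF1 letters were searched as well, though Nrf1 was not among the regulators named above as called. RefSeq promoter windows (GRCm38.p6, 250 bases before to 50 after the start, 300 bases) were matched by symbol for 68 of the 77 members and gave 74 windows. The letters searched on both strands were GCGCATGCG for NRF1, CCGGAAGT for ETS factors such as GABP and AAGATGGCG for YY1. NRF1 letters were in 9.46% of member windows against 1.75% of all 32851 windows, ETS letters in 16.2% against 3.89%, and YY1 letters in 10.8% against 1.40%. Any of the 3 was in 35.1% of member windows (38.3% in the large and 29.6% in the small subunit) against 6.69% of all, and median GC content was 58.5% in member and 52.7% in all windows. All windows together covered 27025 genes, whether expressed in fat or not. Shares over expressed genes or over windows of like GC content were not counted, so the excess cannot be read as particular to the members. Of the 10 windows of members called higher 5 held a motif. At the low end Mrps26, Mrps24 and Mrps11 held a motif, and Mrpl14, Mrpl2 and Mrps21 held none. Mrpl4, Mrpl54, Mrpl38 and Mrps34, also at the low end, had no matched window. A match is only a match of letters.

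Windows of 3 members are shown with the matched letters in capitals, chosen after their values were seen, 2 from the high and 1 from the low end. They are Mrpl32 (chr13:14612988-14613287, minus strand), Mrps22 (chr9:98601630-98601929, minus strand) and Mrps26 (chr2:130563507-130563806, plus strand), each written 5′ to 3′ on the gene's strand.
Mrpl32: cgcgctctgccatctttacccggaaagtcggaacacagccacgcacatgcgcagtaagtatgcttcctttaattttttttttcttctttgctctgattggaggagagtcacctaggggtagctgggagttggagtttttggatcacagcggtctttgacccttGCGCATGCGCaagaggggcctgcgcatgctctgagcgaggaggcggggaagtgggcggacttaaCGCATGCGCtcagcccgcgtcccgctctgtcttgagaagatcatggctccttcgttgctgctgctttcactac
Mrps22: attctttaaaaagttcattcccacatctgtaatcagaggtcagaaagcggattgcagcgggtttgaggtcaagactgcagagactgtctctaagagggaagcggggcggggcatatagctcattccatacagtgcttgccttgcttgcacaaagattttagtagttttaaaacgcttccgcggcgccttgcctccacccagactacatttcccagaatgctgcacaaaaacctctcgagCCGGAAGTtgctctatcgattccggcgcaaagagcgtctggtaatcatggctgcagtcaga
Mrps26: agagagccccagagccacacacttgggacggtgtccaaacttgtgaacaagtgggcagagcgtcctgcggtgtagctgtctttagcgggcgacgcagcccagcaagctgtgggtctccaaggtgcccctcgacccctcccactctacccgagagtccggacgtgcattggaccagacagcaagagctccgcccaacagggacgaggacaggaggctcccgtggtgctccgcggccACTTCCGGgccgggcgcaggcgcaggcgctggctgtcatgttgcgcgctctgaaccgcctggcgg
Mrpl32 held NRF1 letters at 2 places. The first was read on both strands in overlap, 87 and 86 bases before the start, and the second lay 23 bases before it. Mrps22 and Mrps26 held the ETS letters 11 and 15 bases before the start. The windows of Mrpl1 and Mrps2, the most upregulated members, held none of the 3 motifs.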

How the data were processed

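RNA-seq of IngWAT from 3 floxed and 3 H3atKO pools was analysed. Per the labels and the study's methods, the authors trimmed reads with cutadapt 1.3, aligned them to GRCm38 with STAR 2.4.2a and counted them per Ensembl gene with HTSeq 0.6.1, and deposited raw counts per gene. The library kit keeps strand, and the strand setting of the counting is not given in the sources used here. Tallies of reads without a single gene (37.3% to 51.7% of the total with them) were left out.

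Gene symbols, exons and GC content came from GENCODE M21, which matched 46005 ids. Counts were analysed as in the study's methods with limma 3.58.1 (voom, empirical Bayes) after TMM scaling in edgeR 4.0.16 (R 4.3.3), on genes that reached 1 cpm in 1 or more samples, with Benjamini-Hochberg adjustment over all of them and a threshold of 0.05. Normalized cpm are counts divided by the TMM-scaled library size, as CPM. All 77 members were tested. edgeR's quasi-likelihood test, DESeq2 1.42.0, other scalings and filters, the replicate block, the GC correction (loess on the GC content of the longest transcript, span 0.3) and leaving out each sample were alternatives. The fits were also run on counts simulated with known changes but without a relation to GC content or a replicate effect. That run cannot show how they behave where such effects are present, as here.

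The labels give both groups replicate numbers 1 to 3 without saying what a number shares. Same-numbered samples deviated together (r = 0.51, 0.389 and 0.264 across genes), so the number was treated as pairing them. After GC correction the values were 0.393, 0.38 and 0.00142.

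The members and lists were chosen with earlier results of these data known. Named members were the 5 highest and 5 lowest of each subunit, the 3 highest and 3 lowest after GC correction, the 3 most abundant per length in each group, members whose symbol misplaces their protein, and members called in one fit and not in another. Pseudogenes of 3 members (Mrpl23, Mrpl48, Mrps36) held at most 8 counts in any sample. Read depth limits the lowest members, as 3 counts were 0.0852 to 0.126 cpm per sample before TMM scaling.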

Additional observations from a re-analysis of the deposited data

How the results depend on the processing

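Counts of calls moved with most settings, and 3 pools a group limit what can be called. Counts are given as higher and lower. Over all genes they were 2935 and 3465 in DESeq2, 2749 lower in edgeR, 306 and 5667 with library sizes alone, 3717 and 4290 with the replicate block, 807 and 470 with the GC correction, 516 lower with coding GC, 2804 and 3182 at an adjusted p of 0.1, and 1864 lower with 10 counts in every sample. Large subunit counts were 13 and 8 in DESeq2, 3 lower in edgeR, 1 and 17 with library sizes, 15 and 12 with the block, 11 and 6 with block and GC correction, and 15 and 8 at 0.1. Small subunit counts were 8 and 5, 2 lower, 2 and 12, 8 and 9, 2 lower with block and GC correction, and 8 and 3, with 2 lower at 10 counts in every sample. Medians were -0.77 (large) and -0.85 (small) with library sizes and 0.38 and 0.38 with coding GC, which was added after the data were seen, as were the GC-corrected fits without a sample and the counts without overlapping members. Leaving out 1 sample, with or without GC correction, gave 0 to 2729 higher and 0 to 3828 lower of all genes, 0 to 12 and 0 to 9 in the large and 0 to 6 and 0 to 8 in the small subunit, a large subunit median of -0.10 to 0.37 and Hdac3 at -2.36 to -1.56. Log2 fold changes turned in sign in 22 of 77 members with the GC correction, 18 with coding GC, 24 with block and GC correction and 25 with library sizes alone. Of the 38 named members those that turned with the GC correction were Mrpl38 (0.11, and 0.20 with the block), Mrps34 (0.27, 0.37), Mrps18a (0.69, 0.79, coding GC 0.38), Mrps30 (-0.081, -0.087) and Mrpl21 (0.90, 0.92, coding GC 0.27, DESeq2 0.061, RLE scaling 0.052). Mrpl2 turned with both (0.069), and Mrps24 (0.20) and Mrps25 (0.17) with coding GC. Of the named members Mrpl24 (-0.80), Mrpl34 (-0.60), Mrpl41 (-0.50), Mrpl55 (-0.23), Mrps15 (-0.70), Mrps23 (-0.11) and Mrps27 (-0.52) turned with library sizes alone, and Mrpl24 also without a filter (-0.053), at 10 summed counts (-0.00104) and at 10 in every sample (-0.054). Without 1 sample, over uncorrected and GC-corrected fits, named members had ranges across 0 of -3.03 to 0.23 (Mrpl14), -2.42 to 0.29 (Mrpl2), -0.16 to 1.00 (Mrpl21), -0.017 to 0.16 (Mrpl24), -2.73 to 0.35 (Mrpl38), -0.066 to 2.03 (Mrps15), -1.10 to 1.00 (Mrps18a), -1.75 to 0.19 (Mrps24), -0.31 to 1.13 (Mrps30) and -2.55 to 0.50 (Mrps34). In the uncorrected fits without 1 sample only Mrpl21, Mrpl24 and Mrps15 of these crossed 0. The cause was not tested.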
